A study of Homo sapiens with 12 samples.

Results

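The comparison described here is that of A549 cells after 6 h of dust extract with A549 cells in medium alone, over all genes on the array. A549 is an established line from a human lung adenocarcinoma, widely used as a model of alveolar epithelium. All cells, controls included, went without serum overnight before 6 h with poultry dust extract at 0.25%, or with medium only. Each group had 2 arrays, numbered 1 and 2 in the sample titles, so the comparison rests on 4 of the 12 arrays of the series. The other arrays hold A549 after 1 h of the same extract, and the bronchial line BEAS-2B in medium alone or with the extract for 1 h or 6 h. The titles give no time for the controls. Nothing in the labels says that the numbers stand for separate cultures, so the p-values measure the spread between these arrays, which may be technical. All members of the comparison are the 20060 features measured on the arrays, of which 13035 are named genes and 7025 are probes without a gene symbol.

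Airway epithelium is the first tissue that inhaled organic dust meets. Bacterial and fungal products and proteases in such dust are sensed by Toll-like and protease-activated receptors, whose signals reach the transcription factor NF-kB and the MAP kinase cascades. NF-kB dimers bind kB motifs in promoters and switch on chemokines that draw neutrophils and lymphocytes, together with the pathway's own inhibitors, and a slower noncanonical branch works through the subunits p52 (from NFKB2) and RelB.

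The line was checked against its markers. Of 12 genes listed as typical of A549, 11 were detected on both control arrays and on both 6 h arrays, the exception being the probe for AKR1C1. Their summed unnormalized signal was 96170 to 153600 in control and 83100 to 130000 at 6 h, against 5172 to 6212 in BEAS-2B control. Of 7 genes listed for BEAS-2B, VIM, CAV1 and CDH2 were detected on both arrays of both A549 groups, while the basal keratinocyte genes KRT5 and KRT14 and the gene S100A2 were not detected in either group. The list's summed signal did not separate the lines as the first did, at 13000 to 15440 in A549 control and 15900 to 16920 in BEAS-2B control. Of 14 genes of alveolar type II cells, ABCA3, LPCAT1 and LRRK2 were detected on both arrays of both groups, 6 were detected on at least 1 control array and 3 on at least 1 array at 6 h. SFTPA1, SFTPB, SFTPC and NKX2-1, the defining ones, were undetected in both groups. Of 17 leukocyte markers, 5 were detected on both control arrays and 5 on both 6 h arrays, with summed signals of 2418 to 2515 and 1958 to 2717. LYZ, CD14, CD68 and ITGAM were among them in both groups, with FCGR3A in control and S100A9 at 6 h. PTPRC, CD3E, NKG7, CD163, FCER1G, TYROBP and S100A8 were detected in neither group. The 4 arrays each detected 37.5% to 41.1% of all probes, and on each array the median over probes was 22 beads. Some genes described below had fewer on at least 1 of these arrays, such as 7 for SPNS2 and 12 for CD55.

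At 6 h few features passed the test, most of them higher, and chemokine and cytokine genes were among the larger changes. With 2 arrays per group the number that passed depends on precision and processing, as described below, and does not measure how broad the response was. Changes are differences of normalized log2 signal, 6 h minus control, in RNA from whole cultures, in which a change per cell and a change in the share of responding cells cannot be told apart. The test was limma's moderated test with Benjamini-Hochberg adjustment over all features, with a threshold of 0.05. Without regard to the replicate numbers 1 feature passed, the gastrokine gene GKN2, which was higher (0.00499% of 20060), and 0 passed lower (0%). At an unadjusted p under 0.05, 409 features were higher (2.04%) and 346 lower (1.72%). Arrays with the same number deviated together from their group means in A549, with correlations of 0.404 to 0.468 across genes. With the number as a block, 48 features were higher (0.239%) and 8 lower (0.0399%), together 56 (0.279%), of which 42 and 7 were named genes. In what follows, "rose" and "fell" are used of features that passed with the block, and standard errors (SE) are from that fit unless another is named. Of these features only GKN2 also passed without the block. There the adjusted p was 0.9997 for CCL2, CXCL2, HBEGF, PHLDA1, NCALD and FOXA3, among others, so those calls rest on a block that the labels do not state.

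The replicate numbers were also compared separately, as single arrays with no test. On number 1, 140 features were over 2-fold higher (0.698%) and 53 over 2-fold lower (0.264%). On number 2 the counts were 206 (1.03%) and 207 (1.03%). Both numbers showed over 2-fold higher signal for 57 features (0.284%) and over 2-fold lower signal for 8 (0.0399%), while 2 features moved over 2-fold in opposite directions. The correlation between the changes on number 1 and number 2 was 0.228 across all features. Of the 56 features that passed with the block, 50 lay over 2-fold from control on both numbers, and for 52 the normalized values of the groups did not overlap, where 15.9% of all features had both 6 h arrays above both control arrays and 16.5% had both below. Since the block rests on agreement between the numbers, this is a description of the calls. Among the 48 that rose, 30 had the larger change on number 1, and the median change was 1.71 on number 1 and 1.47 on number 2.

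**Figure D1:**
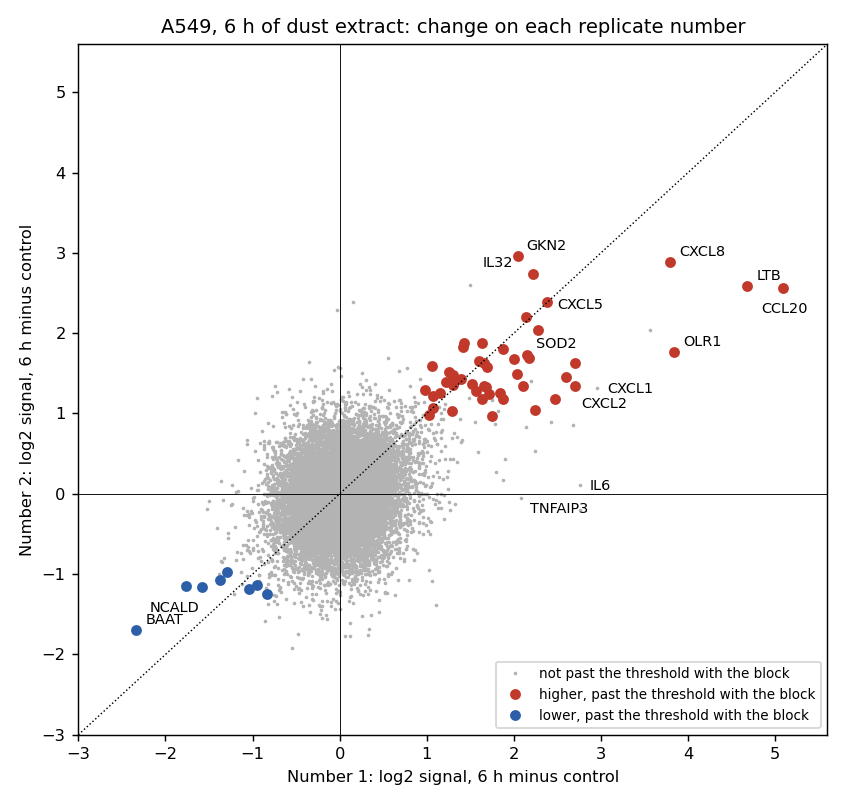
Log2 change at 6 h on number 1 (horizontal axis) and number 2 (vertical axis) for each of 20060 features in A549. Coloured points passed with the replicate number as a block (48 higher in red, 8 lower in blue), the dotted line marks equal changes, and the grey cloud around 0 shows little agreement between the numbers, while CCL20, LTB and OLR1 lie below the line and GKN2 and IL32 above it.

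The neutrophil-attracting CXC chemokines stood highest among the 41 gene lists, with a median change of 2.02 over 7 measured genes, against -0.01 over all features. Of the 7, 3 rose (CXCL8, CXCL5 and CXCL2) and 0 fell. CXCL8 encodes interleukin-8, the main neutrophil attractant of human epithelium. Its unnormalized signal was 606 and 277 on control arrays 1 and 2, and 7183 and 1320 on 6 h arrays 1 and 2. Both 6 h arrays lay above both controls. CXCL8 rose by 3.34 (SE 0.36, adjusted p = 0.00627 with the block and 0.354 without it), a 10.1-fold change, with 3.80 on number 1 and 2.89 on number 2. A second CXCL8 probe gave 2.96.

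CXCL5, another ligand of the receptor CXCR2, was already bright in medium alone, at 1986 and 682, and reached 9461 and 2753 at 6 h. The 6 h arrays were higher than both controls. CXCL5 rose by 2.38 (SE 0.18, adjusted p = 0.00157 with the block and 0.366 without it), and the numbers differed little, at 2.38 and 2.39. The signal of CXCL2 was 183 and 115 in control and 823 and 162 at 6 h, so that 6 h array 2 lay below control array 1 before normalization and above it after. CXCL2 rose by 2.02 (SE 0.30, adjusted p = 0.0328 with the block and 0.9997 without it), with 2.71 on number 1 and 1.34 on number 2. CXCL1 had a change of similar size, from 551 and 225 to 3664 and 370, but missed the threshold at 2.14 (SE 0.37, adjusted p = 0.0592). The remaining members were CXCL6 at 0.60 (adjusted p = 0.527) and a pair with changes below 0, down to -0.26.

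Among 9 measured CC and lymphocyte-attracting chemokines 2 rose, CCL20 and CCL2, and the median change was 0.43, or 0.24 under quantile normalization without background correction. List medians were mostly smaller under that setting, at 1.45 for the neutrophil chemokines, 0.27 for NF-kB feedback genes, 0.20 for noncanonical NF-kB genes and -0.22 for liver-type genes, each with the sign given in the text. CCL20, which attracts dendritic cells and Th17 lymphocytes through CCR6, had a fitted change above 3, like LTB and CXCL8. Its probe was not detected on either control array (95.7 and 88.1) and read 1435 on 6 h array 1 and 199 on 6 h array 2. On the mean of both arrays CCL20 was at least 11.9-fold higher, a fitted change of 3.83 (SE 0.45, adjusted p = 0.0118 with the block and 0.343 without it). The numbers were far apart, at 5.09 and 2.56. CCL2, the monocyte attractant also called MCP-1, went from 487 and 201 to 2528 and 348, so the groups overlapped before normalization. CCL2 rose by 2.02 (SE 0.26, adjusted p = 0.0202 with the block and 0.9997 without it), with 2.60 on number 1 and 1.45 on number 2. CCL5, a T cell attractant, changed by 2.25 on number 1 and 0.54 on number 2 and missed the threshold (adjusted p = 0.178).

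**Figure D2:**
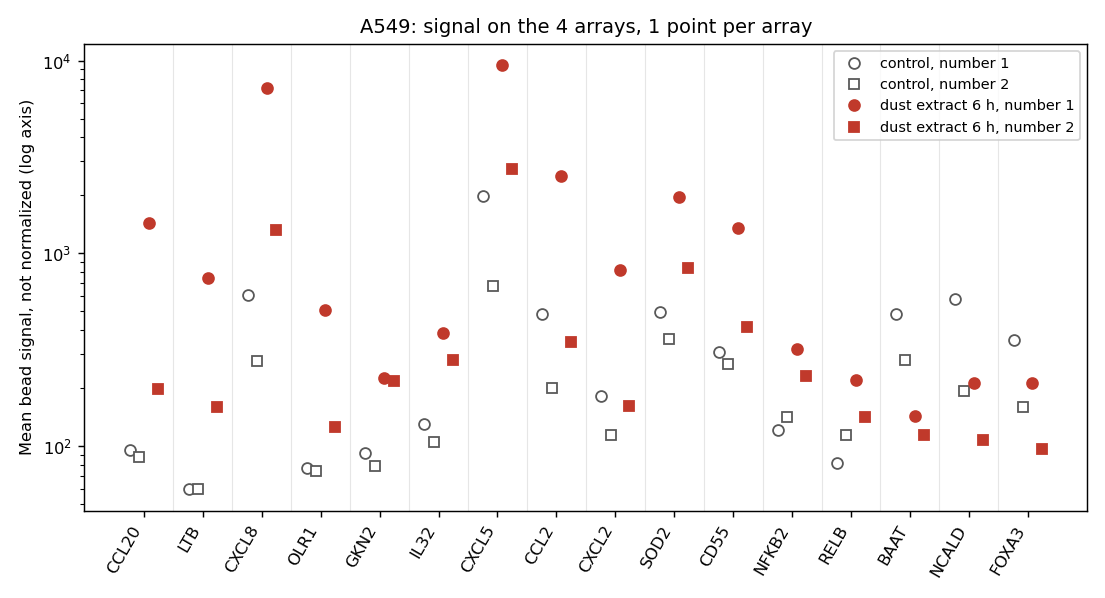
Unnormalized mean bead signal (log axis) of 16 genes on the 4 A549 arrays, with open marks for control, filled marks for 6 h, circles for number 1 and squares for number 2. The filled marks of CCL20, LTB, CXCL8, OLR1, GKN2, IL32 and CXCL5 all lie above the open ones, 6 h array 2 lies below control array 1 for CCL2 and CXCL2, and the marks of NCALD and FOXA3 overlap.

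The promoters of 5 of these genes are printed because they show where kB motifs stand in genes that rose together. Each is the 250 bases before the start site on the gene's strand, from RefSeq on GRCh38.p14, with motif matches in capitals. The windows are chr4:73740319-73740568 (plus strand) for CXCL8, chr4:73998678-73998927 (minus) for CXCL5, chr4:74099196-74099445 (minus) for CXCL2, chr2:227813592-227813841 (plus) for CCL20 and chr6:31582426-31582675 (minus) for LTB, the lymphotoxin beta gene described next.
CXCL8: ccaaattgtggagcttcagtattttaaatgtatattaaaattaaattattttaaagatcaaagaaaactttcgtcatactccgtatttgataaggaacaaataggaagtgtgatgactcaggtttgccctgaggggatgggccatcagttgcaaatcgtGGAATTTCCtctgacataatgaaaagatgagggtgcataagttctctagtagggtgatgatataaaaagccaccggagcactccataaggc
CXCL5: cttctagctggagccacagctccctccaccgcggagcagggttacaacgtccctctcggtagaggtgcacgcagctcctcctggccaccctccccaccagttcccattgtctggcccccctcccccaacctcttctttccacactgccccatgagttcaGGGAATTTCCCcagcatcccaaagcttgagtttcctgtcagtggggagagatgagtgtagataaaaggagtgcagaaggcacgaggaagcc
CXCL2: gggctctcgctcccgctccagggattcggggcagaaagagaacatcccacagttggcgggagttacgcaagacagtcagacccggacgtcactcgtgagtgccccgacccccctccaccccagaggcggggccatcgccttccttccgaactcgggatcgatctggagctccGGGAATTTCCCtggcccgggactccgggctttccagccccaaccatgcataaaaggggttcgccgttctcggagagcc
CCL20: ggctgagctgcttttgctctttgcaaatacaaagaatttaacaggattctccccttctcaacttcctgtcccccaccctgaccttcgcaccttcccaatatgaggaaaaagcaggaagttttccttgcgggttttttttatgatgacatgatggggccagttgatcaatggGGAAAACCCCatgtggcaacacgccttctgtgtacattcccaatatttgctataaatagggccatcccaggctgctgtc
LTB: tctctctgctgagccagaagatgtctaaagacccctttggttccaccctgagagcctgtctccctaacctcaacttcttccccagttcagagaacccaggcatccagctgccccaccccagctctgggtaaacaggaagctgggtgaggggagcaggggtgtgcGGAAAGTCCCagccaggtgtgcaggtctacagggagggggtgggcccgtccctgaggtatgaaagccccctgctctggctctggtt
The motifs searched on both strands were the general NF-kB consensus and the 9 bases GGAATTTCC, which can overlap each other. CXCL5 and CXCL2 hold both, at 91 and 78 bases before the start site, and CXCL8 holds the 9 bases alone, 91 before it. CCL20 and LTB hold the consensus on the opposite strand, 79 and 86 bases before the start. Of the 42 named genes that rose, 32 matched a promoter sequence, and 11 of those (34.4%) hold either motif. Over all 27305 promoters the share was 9.76%, and over the 10337 of genes measured here 11.6%. Among the 6 matched genes that fell 1 did (FOXA3). These are matches of letters, given as a description with no test, and say nothing of whether a factor was bound.

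Beyond chemokines, the cytokine genes LTB, IL32 and EBI3 rose. LTB encodes the membrane subunit of the lymphotoxin heterotrimer, which signals to the noncanonical NF-kB branch through the lymphotoxin beta receptor. Neither control array detected its probe (60.4 and 59.7), and the 6 h arrays read 749 and 160. On the mean of both arrays LTB was at least 7.10-fold higher, with a fitted change of 3.63 (SE 0.38, adjusted p = 0.00578 with the block and 0.18 without it). The change was 4.68 on number 1 and 2.59 on number 2, and a second LTB probe gave only 1.01. It was the 1 gene of 21 measured TNF family ligands and receptors that passed, and the list's median was 0.08. The receptor gene TNFRSF9 had a change of 1.03 that missed the threshold (adjusted p = 0.277).

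IL32, a proinflammatory cytokine with no known mouse counterpart, read 130 and 105 in control and 385 and 279 at 6 h, with no overlap. IL32 rose by 2.48 (SE 0.25, adjusted p = 0.00578 with the block and 0.436 without it), and here number 2 had the larger change, 2.74 against 2.22. A second probe gave 1.80. EBI3, a shared subunit of the cytokines IL-27 and IL-35, was undetected in control and was at least 2.19-fold higher at 6 h (fitted change 1.36, SE 0.20, adjusted p = 0.0354). Of 17 interleukins and other cytokines, IL32 alone passed, and the list's median was 0.03. IL6, the acute-phase cytokine, split by number: it was detected on 1 of the 2 6 h arrays, with signals of 91.3 and 69.8 in control and 322 and 71.7 at 6 h. Its change was 2.76 on number 1 and 0.11 on number 2 (adjusted p = 0.548). IL11 changed by 0.91 (adjusted p = 0.453).

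Among 15 measured NF-kB subunits and IkB proteins 2 rose, NFKB2 and RELB, which are the pair of the noncanonical branch, and the list's median was 0.40. NFKB2, the precursor of p52, read 122 and 141 in control and 318 and 231 at 6 h. The groups were apart, and NFKB2 rose by 1.77 (SE 0.19, adjusted p = 0.00578), with 2.04 on number 1 and 1.5 on number 2 and 1.86 on a second probe. RELB read 82.2 and 114 in control, where 1 array detected it, and 222 and 142 at 6 h. RELB rose by 1.64 (SE 0.26, adjusted p = 0.0412), with 2.24 on number 1 and 1.05 on number 2. The canonical subunit NFKB1 changed by 0.29 (SE 0.20, adjusted p = 0.744) and its inhibitor NFKBIA by 0.50 (SE 0.21, adjusted p = 0.537). NFKBIZ, an atypical IkB that works in the nucleus, had the largest change of the list, 1.80, but just missed the threshold (adjusted p = 0.0594). Of 10 noncanonical pathway genes the same 2 passed, with TRAF3, a brake on the branch, at 0.81 (adjusted p = 0.122).

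Of 16 NF-kB feedback and survival genes 2 rose, SOD2 and TNFAIP2, and the median was 0.42. SOD2, the mitochondrial superoxide dismutase, read 495 and 361 in control and 1949 and 838 at 6 h. Both 6 h arrays were the higher ones, and SOD2 rose by 1.94 (SE 0.18, adjusted p = 0.00355 with the block and 0.354 without it), with 2.15 and 1.73 by number. No other of the 12 measured superoxide and peroxide enzymes passed, and catalase (CAT) changed by -0.35 (adjusted p = 0.754). TNFAIP2, a cytokine-inducible gene, rose by 1.42 (SE 0.22, adjusted p = 0.0379). TNFAIP3, which encodes the inhibitor A20, was split like IL6, with 2.08 on number 1 and -0.06 on number 2 (adjusted p = 0.592). TNIP1, a partner of A20, changed by 1.22 (adjusted p = 0.0774).

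GKN2, the only gene that passed with and without the block, belongs to the gastrokines, secreted proteins best known from the stomach lining. Its probe was below detection in control (92.8 and 79.1) and read 225 and 218 at 6 h. The 6 h signals were close to each other and above both controls. GKN2 was at least 4.31-fold higher, with a change of 2.50 without the block (SE 0.24, adjusted p = 0.0108) and an adjusted p of 0.00355 with it. The change was 2.04 on number 1 and 2.97 on number 2. No other of the 13 measured mucins, gastrokines and trefoil factors passed, and MUC13 at 0.86 (adjusted p = 0.217) and TFF1 at 0.72 (adjusted p = 0.203) came next. Without either control array GKN2 missed the threshold in the fit without the block, and its change over the 12 fits that each left out 1 array ran from 2.18 to 2.82.

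At the cell surface, OLR1 and CD55 rose. OLR1, the lectin-like receptor for oxidized LDL, was undetected in control (76.9 and 74.5) and read 509 and 125 at 6 h. On the mean of both arrays it was at least 4.59-fold higher (fitted change 2.80, SE 0.37, adjusted p = 0.0203 with the block and 0.862 without it). The change was 3.84 on number 1 and 1.77 on number 2. It was the only 1 of 13 adhesion molecules and scavenger receptors that passed, and ICAM1 was detected in neither group. CD55, which protects cells from complement, went from 307 and 267 to 1358 and 414. CD55 rose by 1.82 (SE 0.29, adjusted p = 0.0427 with the block and 0.601 without it), with 2.47 and 1.18 by number. It was the only member to pass among 23 complement and acute-phase genes (median 0.14). SERPINA3 at 1.17 (adjusted p = 0.258) and LCN2 at 0.91 (adjusted p = 0.143) did not. LCN2 stands as an example of how far the numbers lay apart in level: its signal was 1363 and 115 in control and 2138 and 148 at 6 h. VSIR, an immune checkpoint protein of the B7 family, rose by 1.39 (SE 0.23, adjusted p = 0.0479), CDCP1, a transmembrane substrate of Src kinases, by 1.17 (adjusted p = 0.0379), and GJB2, the gap junction protein connexin 26, by 1.38 (adjusted p = 0.0256). Other CDCP1 probes gave 1.17, 0.77 and -0.12.

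Of 20 MAPK phosphatases and receptor tyrosine kinase feedback genes 2 rose, and the median was 0.18. DUSP5, a nuclear phosphatase for ERK, read 785 and 784 in control and 2333 and 1788 at 6 h. DUSP5 rose by 1.64 (SE 0.25, adjusted p = 0.041), with 1.69 and 1.58 by number. PHLDA1 rose by 1.44 (SE 0.20, adjusted p = 0.0256), and its second probe gave 0.73. HBEGF, a ligand of the EGF receptor shed from the cell surface, went from 132 and 104 to 253 and 175 and rose by 1.62 (SE 0.21, adjusted p = 0.0202). It was the 1 of 5 measured EGF family ligands that passed. The others ran from 0.04 for BTC to 0.98 for EREG (adjusted p = 0.113), and the median of 0.65 was the second highest among the lists. MAP2K3, the kinase that activates p38, rose by 1.07 (adjusted p = 0.0412), while 2 more MAP2K3 probes gave 0.22 and 0.73.

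GPRC5A, an orphan receptor of lung epithelium that retinoic acid induces, had one of the most even responses. Its signal was 605 and 553 in control and 2039 and 1442 at 6 h, with the 6 h arrays well above. GPRC5A rose by 1.84 (SE 0.21, adjusted p = 0.00889 with the block and 0.0773 without it), with 1.88 and 1.81 by number. TMEM158, a gene induced by Ras, rose by 1.94 (SE 0.17, adjusted p = 0.00355), from 426 and 385 to 1652 and 886. Among 17 TGF-beta and YAP responsive genes ID3, an inhibitor of basic helix-loop-helix factors, rose by 1.48 (SE 0.20, adjusted p = 0.0219) and ANKRD1, a YAP target, by 1.33 (SE 0.20, adjusted p = 0.0354). The relatives ID2 and ID1 changed by 1.08 and 1.05 (adjusted p = 0.0563 and 0.324).

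Other regulators that rose were the transcription factor SOX8, from 148 and 165 to 404 and 310 (1.84, SE 0.17, adjusted p = 0.00403), the CBP-binding cofactor CITED2 (1.65, adjusted p = 0.0467), the small GTPase RASD1 (1.55, adjusted p = 0.0427) and the deubiquitinase STAMBPL1 (1.41, adjusted p = 0.0202). The ubiquitin ligases TRIM31 and MARCHF4 rose by 1.51 and 1.5, although MARCHF4 overlapped between the groups. SPNS2, the exporter of sphingosine 1-phosphate, rose by 1.72 (SE 0.23, adjusted p = 0.0219), UGCG, which makes glucosylceramide, by 1.41 (adjusted p = 0.0467), FA2H, which hydroxylates fatty acids of sphingolipids, by 1.14 (adjusted p = 0.0427, with overlapping groups) and the oxysterol-binding protein OSBP2 by 1.53 (adjusted p = 0.0172). CEMIP, a protein of hyaluronan breakdown, rose by 1.65 (SE 0.23, adjusted p = 0.0264). The named genes that rose were completed by SERPINB8 (1.00), CA8 (1.20), PTPRH (fitted 1.32, at least 1.70-fold), IFFO1 (1.31) and a probe annotated MIR614 (1.76), which on this array for long transcripts does not measure the mature microRNA. The remaining 7 of the 56 were probes without a gene symbol, 6 higher and 1 lower.

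Fewer genes fell than rose. BAAT, the liver enzyme that conjugates bile acids to glycine and taurine, fell by 2.01 on the log2 scale (change -2.01, SE 0.21, adjusted p = 0.00578 with the block and 0.0773 without it). Its signal was 487 and 280 in control and 144 and 114 at 6 h, and both 6 h arrays were the lower ones. The change was -2.34 on number 1 and -1.69 on number 2. FOXA3, a liver-enriched forkhead factor, went from 357 and 160 to 212 and 96.8, so its groups overlapped. FOXA3 changed by -1.04 (SE 0.17, adjusted p = 0.0463), with -0.94 and -1.13 by number. These are the 2 of 12 measured liver-type genes that passed, and the list had the lowest median, -0.33. ALB at -0.55 and APOH at -0.58 did not pass (adjusted p = 0.622 and 0.385).

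NCALD, a neuronal calcium sensor, went from 581 and 194 to 214 and 108 (change -1.46, SE 0.19, adjusted p = 0.0176), and a second probe gave -1.89. TFCP2L1, a grainyhead-like factor, and WIPF1, an actin regulator, were detected in control and on neither 6 h array, and were at least 1.67-fold and 2.06-fold lower (fitted changes -1.22 and -1.13, adjusted p = 0.0379 and 0.0325). A second WIPF1 probe gave only -0.7, so that bound holds for the first probe alone. BCO1, which cleaves beta-carotene to retinal, had a change of -1.04 (adjusted p = 0.0467), the 1 member called among 14 retinoid and carotenoid genes. C9orf152 had a change of -1.37 (adjusted p = 0.0325) with overlapping groups. Several more genes were lower on both numbers and missed the threshold, among them RAP1GAP, an inactivator of Rap GTPases, at -1.39 and -1.0 by number (adjusted p = 0.0844), TMEM144 at -1.06 and -1.03 (0.0513), BBOF1 at -1.22 and -1.25 (0.0563), SUDS3 at -1.12 and -1.12 (0.204) and TMEM37 at -1.13 and -0.98 (0.0563). COXFA4L3, a relative of a cytochrome oxidase subunit, was higher on both numbers and missed the threshold, at 3.57 and 2.03 (adjusted p = 0.0801), with 0.88 on its second probe.

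For 14 of the 49 named genes that passed with the block, leaving out 1 array in the fit without the block moved the change by over 1.5 times, and for 0 of the 49 did it turn the sign. The 49 were called on these same arrays with a block that rests on agreement between the numbers. Their kept sign is therefore a description of the calls and no support for them. C9orf152 was the least stable, at -0.04 without control array 1 and -2.70 without control array 2. Without control array 1 the change was also nearer to 0 for MARCHF4 (0.36), NCALD (-0.65), PHLDA1 (0.90) and RASD1 (1.0), and without control array 2 for FA2H (0.53). Without 6 h array 1 it was 2.49 for CCL20, 1.74 for OLR1, 0.92 for CXCL2, 0.83 for CCL2 and 0.71 for TRIM31. Without 6 h array 2 it was 1.01 for CEMIP, 0.75 for CA8 and -0.34 for FOXA3.

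Several pathways often linked to dust and smoke held no gene past the threshold at 6 h. Over all features only 0.279% passed with the block. Lists of 6 to 30 genes would mostly hold 0 at that share, so these counts say little about the pathways. Of 16 NRF2 targets 0 passed and the median was -0.10. The heme oxygenase gene HMOX1, with 793 and 957 in control and 421 and 426 at 6 h, changed by -0.96 (adjusted p = 0.0986), and TXNRD1 changed by 0.73 (adjusted p = 0.166). None of 6 aryl hydrocarbon receptor targets passed, and CYP1A1 was detected in neither group. Of 30 interferon-stimulated genes 0 passed and the median was 0.07. MX1 changed by 2.76 on number 1 and by -0.20 on number 2. PTGS2, the inducible cyclooxygenase, changed by 0.72 (adjusted p = 0.426), 1 of 9 prostaglandin genes of which 0 passed. Of 29 cell cycle genes 0 passed (median -0.09), of 13 heat shock genes 0 (median -0.08), of 15 hypoxia and glycolysis genes 0 (median 0.00) and of 15 cholesterol synthesis genes 0 (median -0.16). None of 12 epithelial defence genes passed, and PI3, the elastase inhibitor elafin, changed by 2.68 on number 1 and 0.85 on number 2 (adjusted p = 0.265). IRAK2, an adaptor kinase of Toll-like receptors, was the member nearest to passing among 16 receptor pathway genes (1.42, adjusted p = 0.129), of which 0 passed. AXIN2, a WNT target, changed by -1.10 (adjusted p = 0.0563), and 0 of 7 WNT target genes passed.

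**Figure D3:**
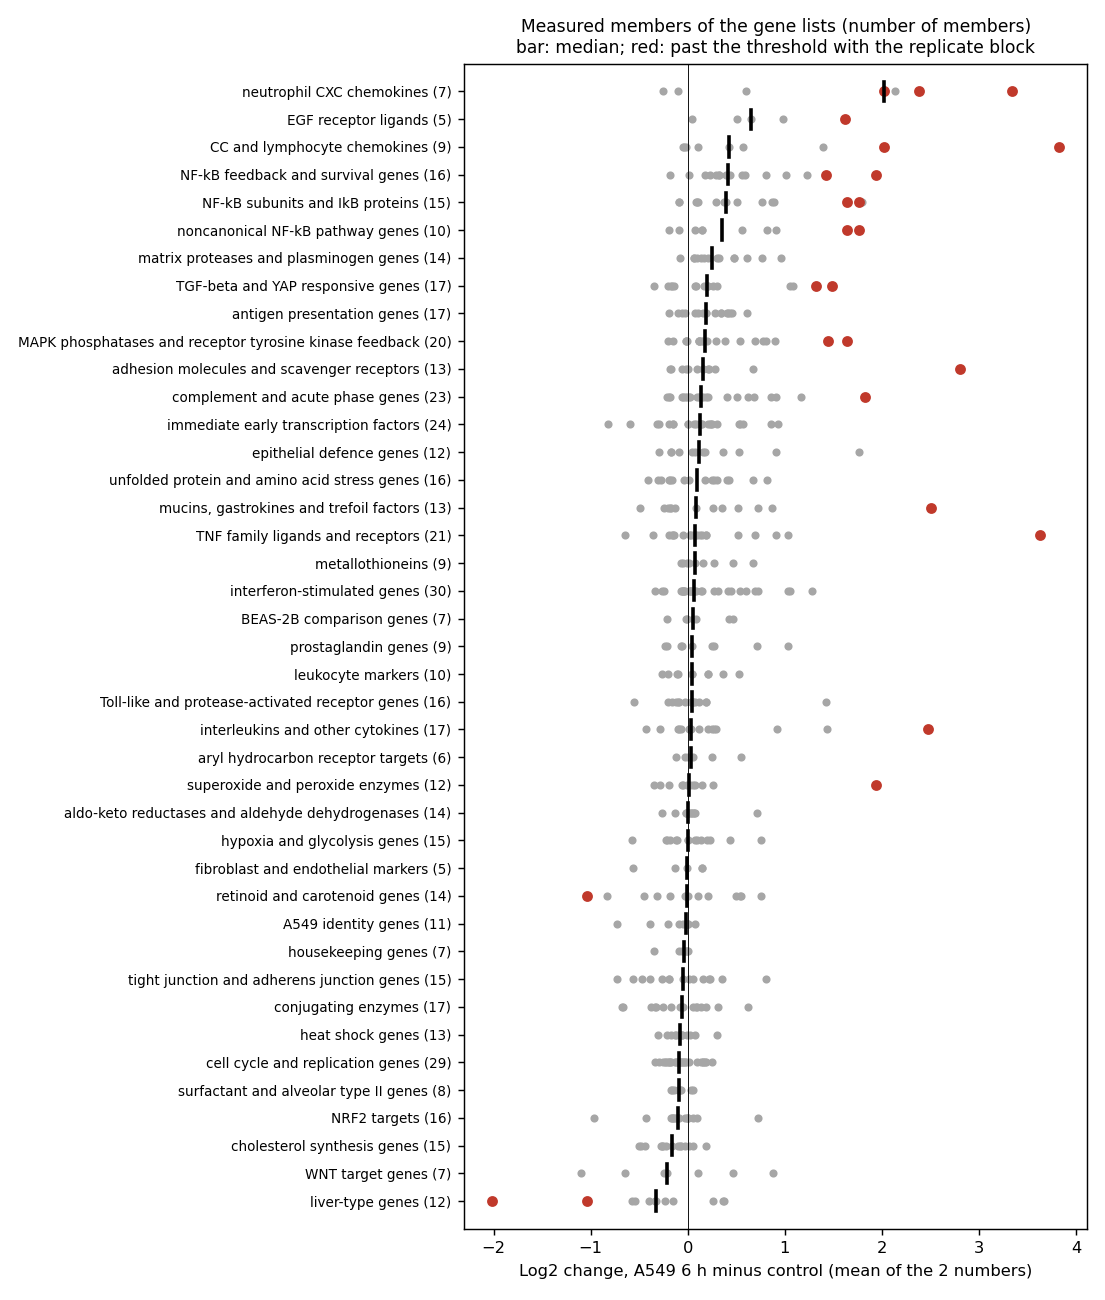
Log2 change at 6 h (horizontal axis, mean of both numbers) of the measured members of 41 gene lists in A549, ordered by median (black bar), with the number of measured members in brackets and members past the threshold with the block in red. The neutrophil chemokines stand at a median of 2.02, the liver-type genes at -0.33, and most lists lie near 0 with 1 or 2 members apart.

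The 1 h arrays of A549 were used to ask which changes were already present at 1 h. The changes at 1 h and 6 h share their control arrays and are set side by side without a test of likeness, while 6 h against 1 h uses no control. That comparison passed 7 features without the block (0.0349%) and 47 with it (0.234%), and 15 of the 48 features that rose and 3 of the 8 that fell were among the 47. At 1 h against control, 66 features were higher (0.329%) and 4 lower (0.0199%) with the block. Of the 48, 16 were among the 66, and of the 8 that fell 0 had passed at 1 h. A larger change at 6 h than at 1 h, seen for 36 of the 48, is favoured by their choice on the 6 h change, and both counts share the control arrays with that choice.

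A group of genes did not pass at 1 h against control and was higher at 6 h than at 1 h. GKN2 changed by 0.36 at 1 h and 2.50 at 6 h, and the difference of 2.15 passed without the block (adjusted p = 0.012) and with it (0.00472). LTB changed by 0.92 at 1 h (adjusted p = 0.934), and 6 h exceeded 1 h by 2.71 (adjusted p = 0.0263 with the block). IL32 exceeded its 1 h level by 1.72 (adjusted p = 0.0303), SPNS2 by 1.67 (0.0263), SOD2 by 1.47 (0.0118), CEMIP by 1.47 (0.0481), GPRC5A by 1.32 (0.0453), TRIM31 by 1.30 (0.0263), SOX8 by 1.21 (0.0273) and CA8 by 1.15 (0.0273). BAAT, NCALD and FOXA3 were lower at 6 h than at 1 h, with differences of -1.84, -1.45 and -1.19 (adjusted p = 0.00863, 0.0191 and 0.0263), from 1 h changes of -0.17, -0.01 and 0.15. CXCL5 was intermediate, with 1.07 at 1 h and 2.38 at 6 h (difference 1.31, adjusted p = 0.0251).

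The chemokine CXCL2 and the GTPase RASD1 were higher at 1 h than at 6 h. CXCL2 changed by 3.91 at 1 h and 2.02 at 6 h (difference -1.89, adjusted p = 0.045) and RASD1 by 3.30 and 1.55 (difference -1.75, adjusted p = 0.0263). CXCL8 changed by 4.82 and 3.34 (difference -1.48, adjusted p = 0.244) and CCL20 by 5.18 and 3.83 (difference -1.35, adjusted p = 0.451), and for both the difference between times missed the threshold. CCL2 was about level, at 2.19 and 2.02 (adjusted p = 0.925). The immediate early transcription factors FOSB, EGR1 and ATF3 were near control at 6 h, at 0.15, -0.16 and 0.24, and their 6 h minus 1 h differences were -6.25, -4.33 and -3.76 (adjusted p = 6.45e-05, 2.78e-05 and 0.0015). None of 24 immediate early genes passed at 6 h against control, and their median change was 0.13.

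**Figure D4:**
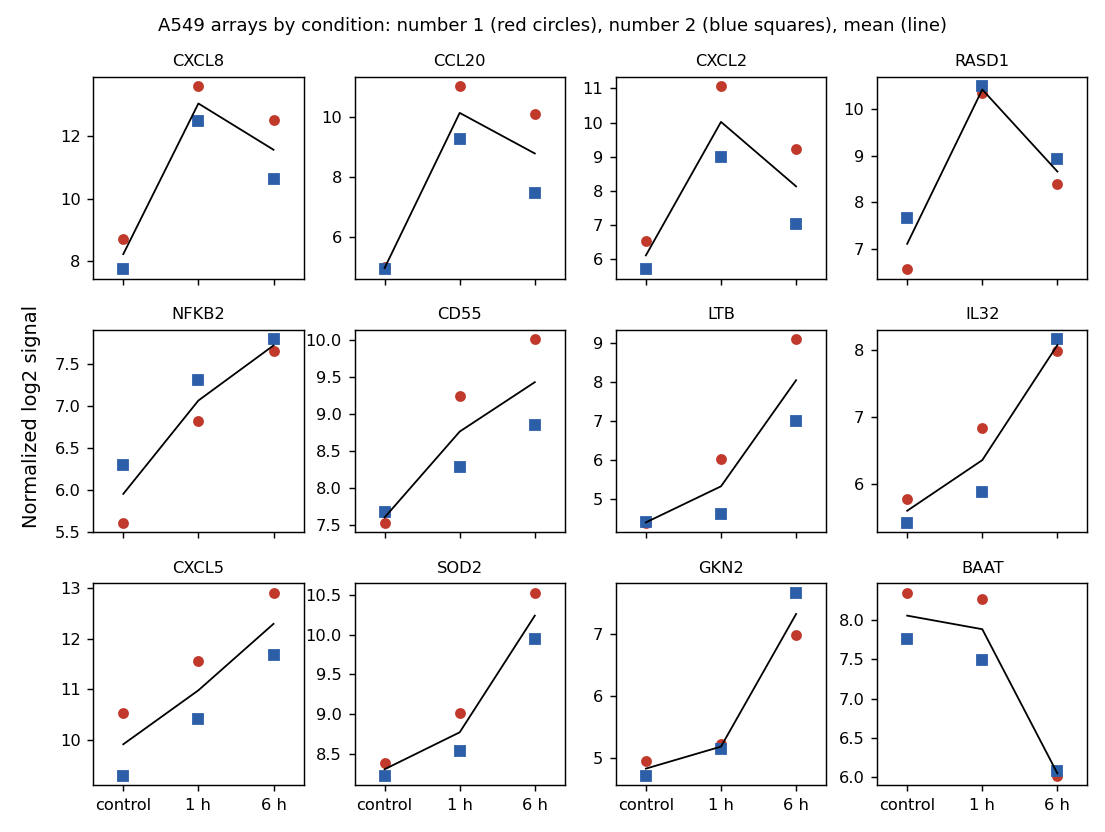
Normalized log2 signal of 12 genes on the 6 A549 arrays in control, at 1 h and at 6 h, with number 1 as red circles, number 2 as blue squares and a line through the means; each panel has its own vertical scale. CXCL8, CCL20, CXCL2 and RASD1 are highest at 1 h, LTB, IL32, CXCL5, SOD2 and GKN2 at 6 h, and BAAT is lowest at 6 h.

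BEAS-2B at 6 h served to ask which of these changes differed between the lines, tested as the A549 change minus the BEAS-2B change. Without the block 2 features differed (0.00997%), KRT23 and an unnamed probe, and both had their change in BEAS-2B. Blocked by number, separately for the 2 lines, 21 differed (0.105%), 11 with the A549 change higher (0.0548%) and 10 with it lower (0.0499%). Of the 48 features that rose in A549, 8 were among the 21, and of the 8 that fell, 1 was. The named ones were LTB, GKN2, IL32, CXCL5, VSIR, TMEM158, SOX8 and BAAT.

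CXCL5 changed by 2.38 in A549 and 0.00 in BEAS-2B (difference 2.38, adjusted p = 0.012), GKN2 by 2.50 and 0.02 (2.48, adjusted p = 0.0327), IL32 by 2.48 and 0.01 (2.46, adjusted p = 0.0494) and LTB by 3.63 and -0.06 (3.69, adjusted p = 0.0494). BAAT changed by -2.01 in A549 and 0.05 in BEAS-2B (difference -2.07, adjusted p = 0.0494). The signals of these genes in BEAS-2B are not given here, and a gene without signal there could not fall. Whether the lines differed in response or in basal level was not tested. CCL20, at 3.83 and 0.08, missed the threshold for a difference (3.75, adjusted p = 0.0916), as did SOD2 (1.56, adjusted p = 0.0734) and NFKB2 (1.61, adjusted p = 0.0809). CXCL8 changed by 3.34 in A549 and 1.84 in BEAS-2B, and HBEGF by 1.62 and 1.28. Both differences missed the threshold (1.5 and 0.34, adjusted p = 0.408 and 0.775).

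**Figure D5:**
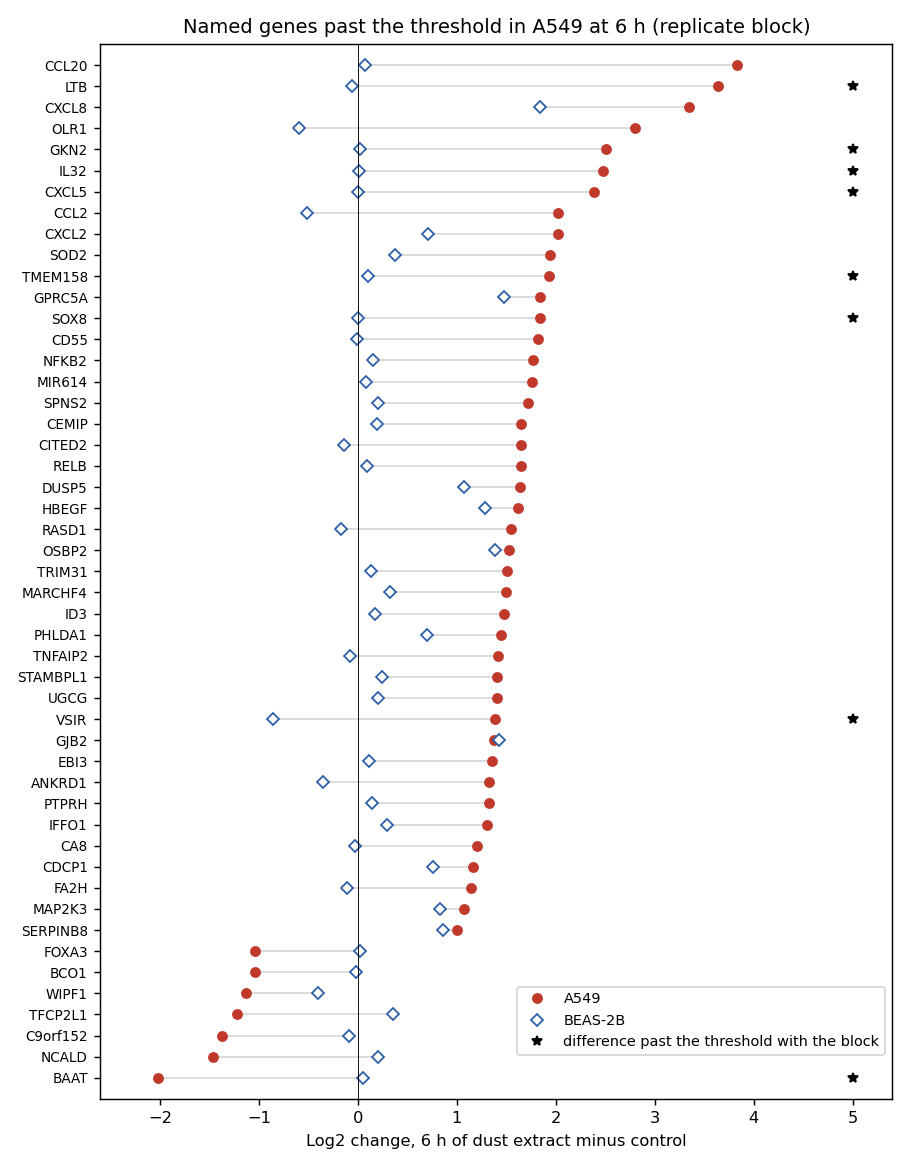
Log2 change at 6 h of the 49 named genes that passed with the block in A549, as filled circles for A549 and open diamonds for BEAS-2B, with a star where the difference between lines passed with the block. The 8 stars stand beside LTB, GKN2, IL32, CXCL5, TMEM158, SOX8, VSIR and BAAT, while GJB2, OSBP2 and HBEGF have nearly equal changes in both lines.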

How the data were processed

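RNA was labelled and hybridised to Illumina bead arrays, and the authors deposited a table of unnormalized probe intensity values with detection p-values, exported from GenomeStudio 2011.1 per the submitters' processing notes. A matrix of normalized intensity values was also deposited and served as an alternative. From the unnormalized intensities, log2 values were computed with limma 3.58.1 in R 4.3.3 (neqc: normexp correction with control probes inferred from the deposited detection p-values, offset 16, quantile normalization, log2). Probes detected at p under 0.05 on at least 2 of 12 arrays were kept (24467 of 47320), and the brightest probe stood for each gene. The probe table gave 30112 probes 1 symbol, 8 several and 17200 none. A fold against a group that no array detected is a lower bound against the dimmest detected probe. It is taken on the mean of both arrays, so the change on a single number can lie below it, as on number 2 for CCL20, LTB and OLR1. Where a sum of array signals is given, signals of different probes were added only as a check of the line.

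limma was fitted with 1 mean for each of 6 groups on the 12 arrays (residual degrees of freedom 6, prior 4.71), so the spread of the other groups enters each p. With so few arrays the median SE of a change was 0.258, or 0.197 with the block (residual degrees of freedom 4, prior 5.67), and precision is limited by their number. The block is the replicate number within each line. It is given because all 3 same-number correlations within A549 were above 0.1 (0.405 between control and 6 h), although the labels state no pairing. The block was fitted in BEAS-2B too, for which no such correlation is given, and that line's spread enters each p. Adjusted p-values without further mention are from limma with this block. Replicates correlated by 0.981 in control and 0.98 at 6 h.

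The comparison, the gene lists and the tests were chosen with earlier results of these data known. Named genes were every gene that passed without the block, the 20 largest rises and 10 largest falls with it, the 10 highest and 10 lowest by the smaller of both numbers' changes, a panel of 26 genes and up to 4 members of each list. The further genes past the threshold with the block, and KRT23, were named after their values were seen. BIRC3, a panel gene, was not measured. The fit was tested on simulated data. Alternatives were other normalizations, filters, offsets, sets of arrays and leaving out each array.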

Additional observations from a re-analysis of the deposited data

Results flagged for a closer look

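The 6 h change differed between the lines, by the test of the difference itself with the replicate number as a block, for 8 named genes among those that passed in A549. The A549 change exceeded the BEAS-2B change by 3.69 for LTB, 2.48 for GKN2, 2.46 for IL32, 2.38 for CXCL5, 2.25 for VSIR, 1.84 for TMEM158 and 1.83 for SOX8, and lay below it for BAAT (difference -2.07). For VSIR the BEAS-2B change was -0.86, against 1.39 in A549, and no test of the BEAS-2B change alone is given. With the block, the A549 call of VSIR was lost with no filter on dim probes and on the A549 arrays alone. None of these 8 differences passed without the block, where the smallest adjusted p was 0.0792, for GKN2.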

How the results depend on the processing

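With the replicate number as a replicate block, the counts of features that passed rose from 1 to 56 for 6 h against control, from 7 to 47 for 6 h against 1 h and from 2 to 21 for the difference between lines. For 6 h against control the count was 3 under quantile normalization without background correction, 3 with the deposited matrix and 3 with an offset of 50, and 0 when the 6 A549 arrays or the 4 arrays of the comparison were fitted alone. Median scaling gave 11 for 6 h against 1 h and 4 for the lines, and no filter on dim probes gave 0 for the lines. With the block, the 3 comparisons in the same order had 175, 140 and 124 passing under quantile normalization without background correction or with the deposited matrix, and 20, 31 and 6 with no filter. The A549 arrays alone with the block gave 22 and 25. Over the fits that left out 1 array each the counts ran from 0 to 3 for 6 h against control, 2 to 9 for 6 h against 1 h and 0 to 3 for the lines. The count for 6 h against control was 0 without control number 1 or without control number 2, and 3 without 6 h number 2 (GKN2, CCL20 and LTB). Features over 2-fold apart on both numbers, 65 in all, were 27 under quantile normalization, 27 with the deposited matrix and 37 with an offset of 50. Causes were not tested. No result past the threshold changed sign under these settings, which is favoured by the choice of results on these same arrays. Of the 49 named genes called with the block, 49 were kept under quantile normalization with the block, 17 with no filter and 18 on the A549 arrays alone. Among those lost on the A549 arrays alone were CCL20, OLR1, CCL2, CXCL2, CD55, RELB and, of the named falls, all but BAAT. Probes near background, such as those of GKN2 and LTB in control, limit the folds to lower bounds.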

Other observations

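Genes of tissue remodelling were mostly above 0 without any passing. Of 14 matrix protease and plasminogen genes 13 had a change above 0 and the median was 0.25, beside 9748 of 20060 features above 0 overall. The urokinase receptor PLAUR changed by 0.96 (adjusted p = 0.397 with the block) and urokinase, PLAU, by 0.76 (adjusted p = 0.265). Of 17 antigen presentation genes 13 had a change above 0 (median 0.18), led by HLA-F at 0.61 and the peptide transporter TAP1 at 0.46 (adjusted p = 0.469 and 0.574). A second HLA-F probe gave -0.09. Of 15 cholesterol synthesis genes 3 had a change above 0.

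Some genes were split by number in a way the mean hides. MX1, IL6 and TNFAIP3 changed by 2.76, 2.76 and 2.08 on number 1 and by -0.20, 0.11 and -0.06 on number 2. CDH1, the adherens junction gene of E-cadherin, at 1098 and 276 in control and 588 and 175 at 6 h, differed more between the numbers than between the conditions.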
